A study of Homo sapiens with 12 samples.

Results

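The thioredoxin, peroxiredoxin and sulfiredoxin genes are a list of 10 human genes of thiol-based redox control: TXN, TXNRD1, TXNRD2, SRXN1 and PRDX1 to PRDX6. They were listed by symbol, with no measured value in the rule, though earlier results of these data were known. Each symbol was matched to an Ensembl gene identifier of the count files. Of the 10 genes, 9 had a count row among 54127 rows, and all 9 passed the filter on low counts together with 14505 genes in all. No count row was matched to SRXN1, so sulfiredoxin was not analysed here. RNAseq had been performed on C4-2 cells, a castration-resistant prostate cancer line derived from LNCaP, which were treated for 6 h with vehicle (DMSO) or with PBKi. PBKi stands for the compound HI-TOPK-032, which inhibits PDZ binding kinase (PBK, also called TOPK) and was given at 1 µM. The labels of the PBKi libraries also list an anti-PBK antibody, and they name another RNA kit than the methods and flow-sorted cells, points that the sources used here do not resolve. There were 6 DMSO and 6 PBKi libraries, all of the same cell line, and the study used them to ask how PBK inhibition changes the transcriptome of prostate cancer cells. Nothing in the sources used here says whether the replicates were separate cultures, so the p-values measure the spread between these libraries.

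Thioredoxin is a small protein that reduces disulphides in other proteins and is itself reduced by thioredoxin reductase, a selenoprotein that takes electrons from NADPH. Peroxiredoxins are abundant peroxidases that reduce hydrogen peroxide with a cysteine, and most of them are then reduced by thioredoxin. When the cysteine is oxidised further the enzyme is inactive, and sulfiredoxin can restore it. Several of these genes are textbook targets of NRF2, a transcription factor that induces genes with antioxidant response elements in their regulatory regions when electrophiles or oxidants are present.

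Following PBKi, 4 of the 9 measured genes were upregulated and 2 were downregulated, and 3 did not pass the test (edgeR quasi-likelihood test, Benjamini-Hochberg adjusted p under 0.05 over all genes). The cytosolic reductase TXNRD1 rose 3.27-fold, and the peroxiredoxins PRDX1, PRDX5 and PRDX6 rose 1.5-fold, 1.24-fold and 1.16-fold. The mitochondrial PRDX3 and the endoplasmic reticulum PRDX4 fell to 0.714 and 0.854 of their DMSO level. TXN, TXNRD2 and PRDX2 were not called. PBKi changed many genes in these cells: 20.1% of all genes tested were called higher and 21.5% lower. The share of members called higher is 4 of 9 and the share called lower is 2 of 9, the second close to that background. Upregulated genes made up 48.3% of all calls, and 60% when libraries were scaled by their totals alone, under which 5 members were called higher and 1 lower. The median log2 fold change was 0.16 over the 9 members and -0.01 over all genes tested.

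A pair of stretches of genome sequence are shown because TXNRD1 had the largest change of the members and its start regions were the only ones, among those given, to hold the searched motif. RefSeq promoter sequences (GRCh38.p14, 250 bases before to 50 after a start) were given for 12 starts of 8 of the 10 genes, with no entry for PRDX1 and PRDX6. They were searched on both strands for TGACNNNGC, the core of the antioxidant response element, and for TGACTCA, the AP-1 site, motifs that can overlap. The first motif was present at both TXNRD1 starts and at none of the other 10 starts of 7 genes, whereas 13.35% of all 35116 promoters of that length hold it. The AP-1 letters were in none of the 12, and in 4.95% of all promoters. Each stretch below runs 5′ to 3′ from 150 bases before to 30 bases after the start, on the + strand, with matches to the first motif in capitals.
TXNRD1 start 1, chr12:104215629-104215808: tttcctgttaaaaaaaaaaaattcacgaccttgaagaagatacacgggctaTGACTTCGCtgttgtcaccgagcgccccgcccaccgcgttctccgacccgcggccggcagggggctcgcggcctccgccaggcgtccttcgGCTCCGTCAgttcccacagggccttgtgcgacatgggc
TXNRD1 start 2, chr12:104286882-104287061: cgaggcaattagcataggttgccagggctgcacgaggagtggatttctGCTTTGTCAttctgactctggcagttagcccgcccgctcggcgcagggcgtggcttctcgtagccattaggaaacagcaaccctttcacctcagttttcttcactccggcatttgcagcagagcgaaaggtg
At start 1, the match TGACTTCGC begins 99 bases before the start, and a match on the opposite strand, TGACGGAGC, spans the start itself. At start 2 the match TGACAAAGC lies on the opposite strand, 102 bases before the start. A match of letters is a description of the sequence and does not show that a factor binds there.

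Levels are given as CPM, read counts scaled to a common library total and normalised with TMM factors, and fold changes on the log2 scale with their standard error. Libraries held 9663203 to 28029908 reads on genes, so a member had between 801 counts (TXNRD2) and 55306 counts (TXNRD1) in a library. The PBKi and DMSO libraries of a gene are said not to overlap when all 6 of one group lie beyond all 6 of the other. Across all genes tested, 10.5% had all PBKi libraries above all DMSO libraries and 9.68% had them all below. Among the members 4 were of the first kind (TXNRD1, PRDX1, PRDX5 and PRDX6) and 0 of the second.

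**Figure D1:**
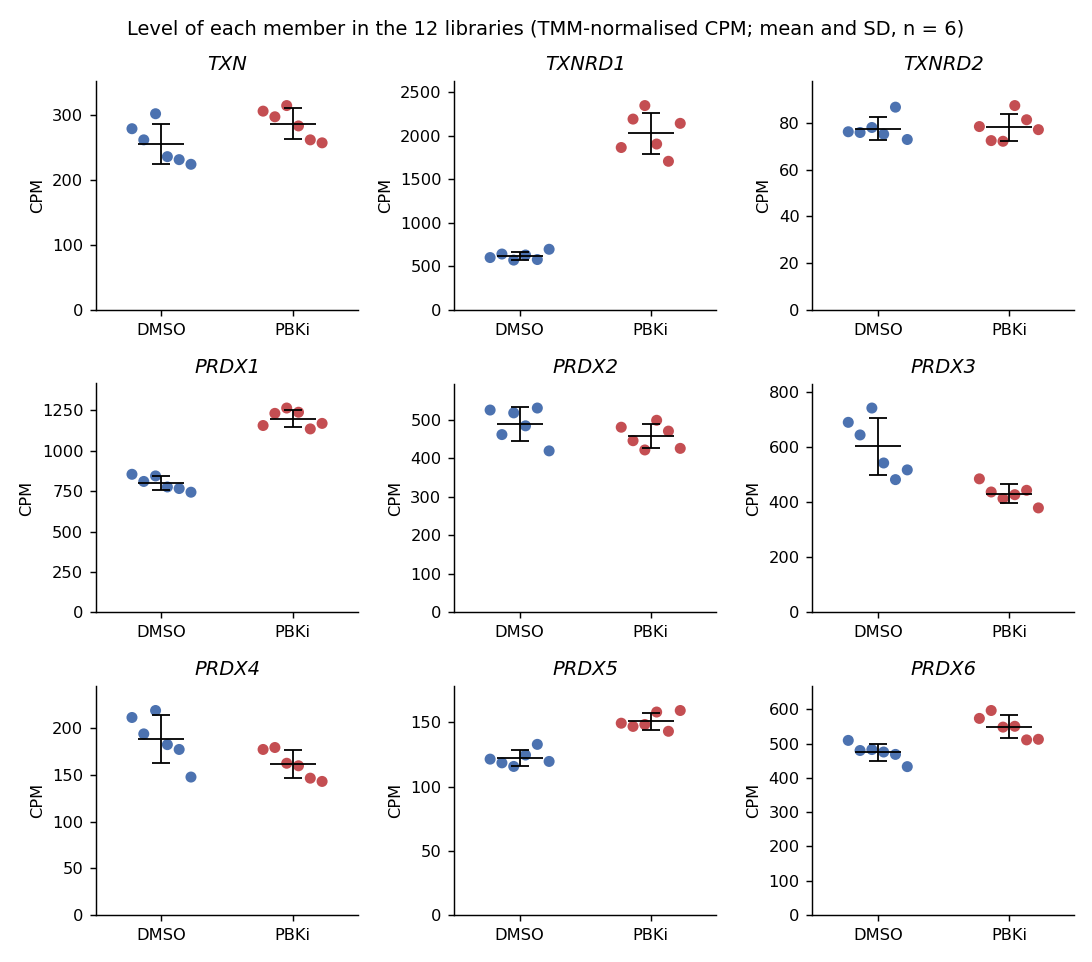
Level of each of the 9 measured genes (TMM-normalised CPM, linear axes from 0) in 6 DMSO and 6 PBKi libraries, ordered by replicate number within a group, with black bars for the mean and SD. The PBKi points lie above every DMSO point for TXNRD1, PRDX1, PRDX5 and PRDX6, and the groups overlap for the other 5 genes.

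TXNRD1 (ENSG00000198431, chr12:104609557-104744085, + strand, GRCh37) encodes the cytosolic and nuclear thioredoxin reductase. Its level was 572 CPM in the lowest, 616 in the median and 696 in the highest DMSO library, and 1705, 2021 and 2344 CPM in the lowest, median and highest PBKi library. The groups were far apart, and the lowest PBKi library (replicate 5) still had more than 2 times the level of the highest DMSO library (replicate 6). The means were 620 ± 46.4 CPM in DMSO and 2024 ± 239 CPM following PBKi (SD, n = 6). The log2 fold change was 1.71 ± 0.08 (SE; adjusted p = 1.84e-11), with a 95% interval of 2.92-fold to 3.65-fold, and it ranked 209 of 14505 genes by rise.

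TXN (ENSG00000136810, chr9:113006090-113018787, − strand), the substrate of that reductase, had 225, 249.5 and 303 CPM in the lowest, median and highest DMSO library and 258, 291 and 315 CPM following PBKi. The groups overlapped, with 2 PBKi libraries above the highest DMSO library. Its log2 fold change of 0.16 ± 0.08 was not called (adjusted p = 0.0899), and the 95% interval runs from 1.00-fold to 1.25-fold. In both groups replicates 1 to 3 were above replicates 4 to 6: 262 to 303 against 225 to 236 CPM in DMSO, and 298 to 315 against 258 to 284 CPM following PBKi. With a term for these replicate sets TXN was called at the same size (log2 0.17, adjusted p = 0.00525), and it was also called with scaling by library totals (adjusted p = 0.039) and without DMSO replicate 3 (adjusted p = 0.0181). Its adjusted p ranged from 0.00359 to 0.19 over the alternatives.

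TXNRD2 (ENSG00000184470, chr22:19863040-19929343, − strand) encodes the mitochondrial reductase. It had 72.8, 76.0 and 86.7 CPM in the lowest, median and highest DMSO library and 72.1, 77.7 and 87.3 CPM following PBKi. The ranges were almost the same. The log2 fold change was 0.01 ± 0.06 (adjusted p = 0.87), and the 95% interval of 0.928-fold to 1.10-fold excludes a change of the size seen in TXNRD1.

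PRDX1, PRDX2, PRDX3 and PRDX4 form the group of peroxiredoxins that act as linked pairs of subunits. PRDX1 (ENSG00000117450, chr1:45976586-46008404, − strand), a cytosolic peroxidase, had 743, 792 and 854 CPM in the lowest, median and highest DMSO library and 1134, 1199 and 1263 CPM following PBKi. The groups did not overlap, and the libraries within each group lay close together. The means were 798 ± 44.5 and 1198 ± 52.3 CPM (SD, n = 6), with a log2 fold change of 0.59 ± 0.05 (adjusted p = 1.09e-07). In the annotation used here, PRDX1 shares 501 of its exon bases (29.79%) with MMACHC on the opposite strand. Whether reads were counted by strand is not given in the sources used here. MMACHC held 9901 counts over all libraries against 202057 for PRDX1, and it moved the other way (log2 -0.19 ± 0.06, adjusted p = 0.0122). The share of uniquely aligned reads left uncounted because they fell on more than 1 gene was 3.87% to 4.10% in DMSO and 4.16% to 4.35% following PBKi, and its part in the PRDX1 value was not tested.

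PRDX2 (ENSG00000167815, chr19:12907634-12912614, − strand), also cytosolic, had 419, 501 and 530 CPM in the lowest, median and highest DMSO library and 422, 458 and 499 CPM following PBKi. Every PBKi library fell inside the DMSO range. The log2 fold change was -0.10 ± 0.06 (adjusted p = 0.227), with a 95% interval of 0.85-fold to 1.02-fold.

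PRDX3 (ENSG00000165672, chr10:120927232-120938324, − strand), the mitochondrial member of this group, had 482, 593 and 741 CPM in the lowest, median and highest DMSO library and 379, 432 and 484 CPM following PBKi. Of the PBKi libraries, 5 were below every DMSO library, and replicate 1 (484 CPM) was just above the lowest DMSO library (replicate 5, 482 CPM). The means were 602 ± 104 and 431 ± 34.8 CPM (SD, n = 6), with a log2 fold change of -0.49 ± 0.09 (adjusted p = 0.000509), the largest fall among the members. DMSO was the more variable group: replicates 1 to 3 had 644 to 741 CPM and replicates 4 to 6 had 482 to 542 CPM. Within replicates 1 to 3 alone the log2 fold change was -0.63 (adjusted p = 6.65e-06), and within replicates 4 to 6 alone it was -0.30 (adjusted p = 0.0241).

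PRDX4 (ENSG00000123131, chrX:23682379-23704514, + strand), the peroxiredoxin of the endoplasmic reticulum, had 148, 188 and 219 CPM in the lowest, median and highest DMSO library and 143, 161 and 180 CPM following PBKi. The groups overlapped, with 2 PBKi libraries below the lowest DMSO library. Its log2 fold change was -0.23 ± 0.08 and only just passed the test (adjusted p = 0.0379). It was not called without any of DMSO replicates 1, 2, 3 and 4 or PBKi replicates 3, 4, 5 and 6 (adjusted p between 0.0572 and 0.11), while its direction held in all 12 fits with 1 library left out. Within replicates 4 to 6 alone the log2 fold change was -0.175 (adjusted p = 0.208). Over all alternatives its adjusted p ranged from 0.00154 to 0.208.

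PRDX5 and PRDX6 act by other catalytic cycles than the group above. PRDX5 (ENSG00000126432, chr11:64085593-64089283, + strand) is found in mitochondria, peroxisomes and the cytosol. It had 116, 120 and 133 CPM in the lowest, median and highest DMSO library and 143, 149 and 159 CPM following PBKi. The groups did not overlap, and the log2 fold change was 0.31 ± 0.05 (adjusted p = 7.56e-05). PRDX6 (ENSG00000117592, chr1:173446469-173457954, + strand), which is recycled with glutathione rather than thioredoxin, had 433, 478 and 510 CPM in the lowest, median and highest DMSO library and 511, 549 and 597 CPM following PBKi. The lowest PBKi library (511 CPM) was next to the highest DMSO library (510 CPM), so the groups only just did not overlap. The log2 fold change was 0.21 ± 0.05 (adjusted p = 0.00483), and it was not called within replicates 4 to 6 alone (log2 0.19, adjusted p = 0.0936), where 3 libraries per group were compared.

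**Figure D2:**
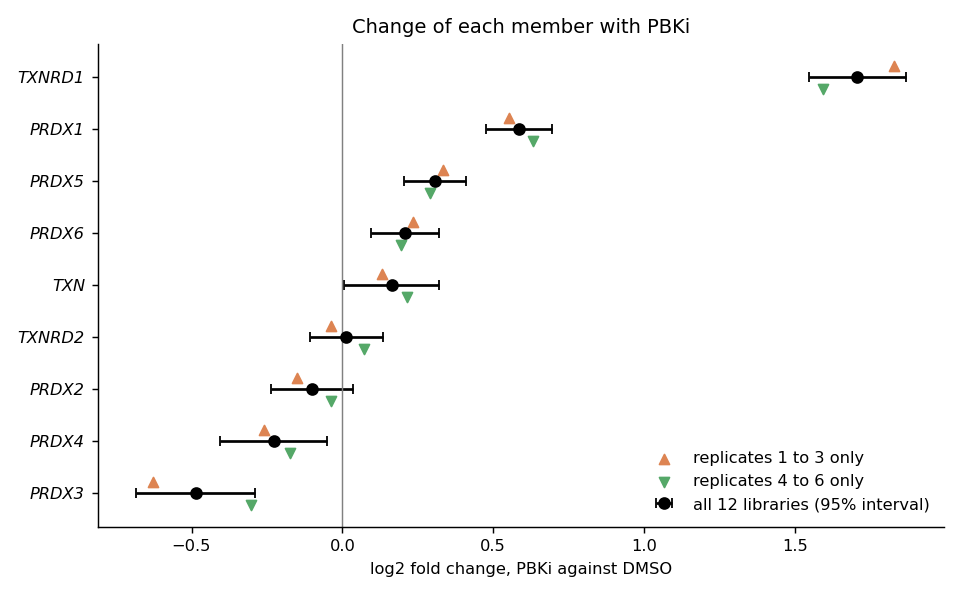
Log2 fold change of each member, PBKi against DMSO, as black points with 95% intervals from all 12 libraries, with triangles for fits in replicates 1 to 3 only and in replicates 4 to 6 only. TXNRD1 stands at 1.71, PRDX1 at 0.59 and PRDX3 at -0.49, and the triangles lie on the same side of 0 in both sets for every gene except TXNRD2.

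Replicates 1 to 3 and 4 to 6 were compared because an earlier result of these data set them apart on the second principal component. That component held 9.76% of the variance over all genes, and the scores of the libraries on it are not given here. The labels do not name this split as a batch. In DMSO, 5 members (TXN, PRDX1, PRDX3, PRDX4 and PRDX6) were higher in each of replicates 1 to 3 than in each of replicates 4 to 6, as were 13.5% of all genes tested, and 0 members were lower in each (15.7% of all genes). Following PBKi, TXN and PRDX4 were higher in this way (10.5% of all genes) and 0 members lower (11.1%). Whether the PBKi effect differed between the sets was tested with an interaction term. No member passed the adjusted threshold in edgeR, and neither did any other gene (0% called). Before adjustment 1 member, PRDX3, was under 0.05, as were 700 of all genes (4.83%). The adjusted p of PRDX3 in this interaction was 0.927 in edgeR.

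Levels of different genes were compared as CPM per kilobase of annotated exon. In DMSO the order was PRDX1 (475 ± 26.4 CPM per kb), TXN (254 ± 30.4), PRDX2 (241 ± 21.4), PRDX6 (206 ± 10.8), PRDX3 (178 ± 30.8), PRDX5 (142 ± 7.04), PRDX4 (102 ± 13.9), TXNRD1 (92.4 ± 6.9) and TXNRD2 (9.44 ± 0.589; SD, n = 6). PRDX1, PRDX5 and TXNRD1 were each above the next gene in every library, whereas the libraries of TXN and PRDX2, PRDX2 and PRDX6, PRDX6 and PRDX3, PRDX3 and PRDX5, and PRDX4 and TXNRD1 overlapped. Following PBKi, TXNRD1 was second at 302 ± 35.6 CPM per kb, where it overlapped with TXN (285 ± 23.3), and PRDX1 was first at 712 ± 31.1. The ratio of TXNRD1 to TXN per kilobase was 0.37 ± 0.0628 in DMSO and 1.06 ± 0.12 following PBKi, with no overlap. The ratio of TXNRD1 to its mitochondrial counterpart TXNRD2 was 9.84 ± 1.22 in DMSO and 32.0 ± 5.77 following PBKi. These levels depend on the exon length in the annotation, which counts every isoform and which is long for both reductases. The gene models on which reads were counted may differ from that annotation.

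**Figure D3:**
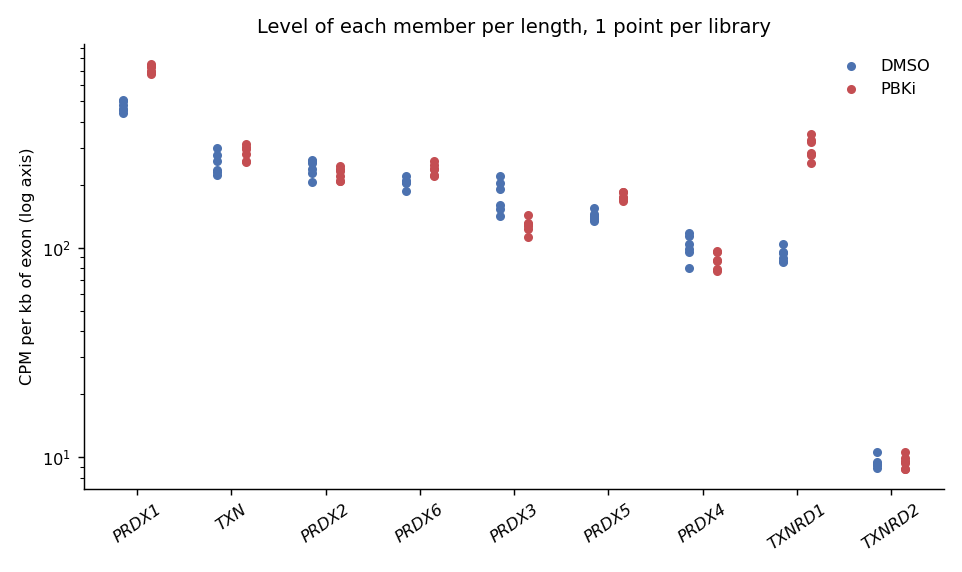
CPM per kilobase of annotated exon on a log axis, 1 point per library, for the 9 measured genes in the order of their DMSO mean. TXNRD1 moves from 92.4 to 302 CPM per kb, next to TXN, while TXNRD2 stays near 9.5 CPM per kb in both groups.

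The make-up of the peroxiredoxin transcripts shifted as well. The 6 peroxiredoxins summed to 1343 ± 89.6 CPM per kb in DMSO and 1564 ± 50.6 CPM per kb following PBKi (SD, n = 6), and the lowest PBKi sum (1500 CPM per kb) was above the highest DMSO sum (1446 CPM per kb). Without the division by length the sums overlapped, at 2380 to 2921 CPM in DMSO and 2788 to 3035 CPM following PBKi. PRDX1 made up 34.7% to 36.6% of this sum in the DMSO libraries and 43.4% to 47.6% in the PBKi libraries. The share of PRDX2 went from 16.8% to 19.9% in DMSO down to 13.1% to 15.4%, that of PRDX3 from 10.9% to 15.3% down to 7.48% to 9.05%, and that of PRDX4 from 6.61% to 8.22% down to 5.14% to 6.04%. The shares of PRDX5 and PRDX6 overlapped between the groups. Shares of a sum are not independent of each other, so a rise of PRDX1 alone lowers the others.

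**Figure D4:**
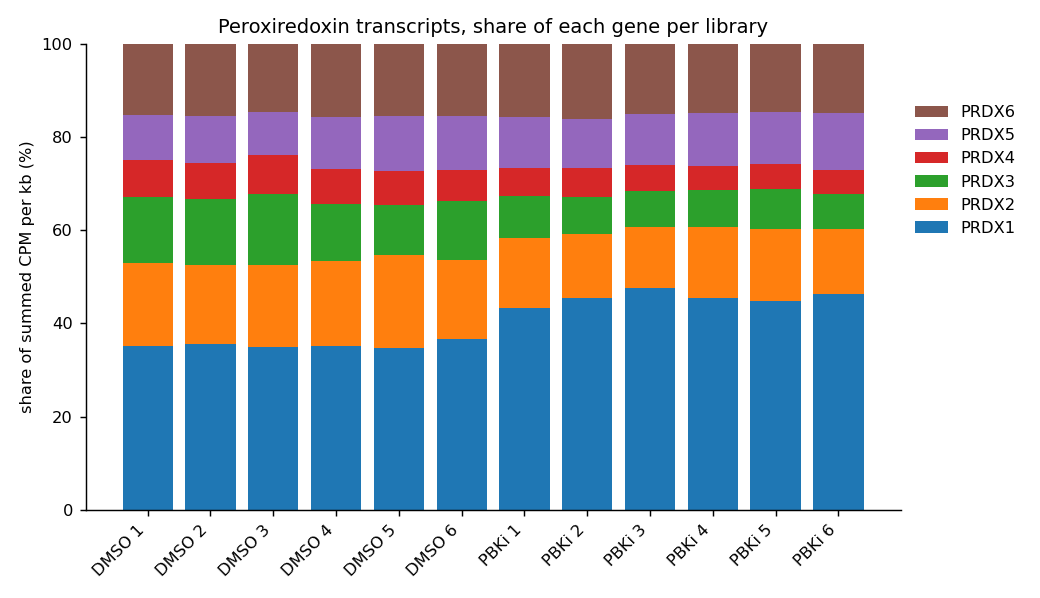
Share of each peroxiredoxin in the summed CPM per kilobase of PRDX1 to PRDX6, as stacked bars that add to 100% for each of the 12 libraries. The PRDX1 segment is at most 36.6% in DMSO and at least 43.4% following PBKi, and the PRDX3 segment is smaller in all 6 PBKi libraries.

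The genes whose pattern was most like that of TXNRD1 were sought among 9989 other genes whose log2 CPM averaged 3 or more. Over the 12 libraries the highest Pearson correlations of log2 CPM were with GCLM (r = 0.999), the modifier subunit of the rate-limiting enzyme of glutathione synthesis, ALDH3A2 (r = 0.997), a fatty aldehyde dehydrogenase, and FGF13 (r = 0.997), an intracellular member of the fibroblast growth factor family. The difference between groups dominates those values. After the group means were subtracted, GCLM was again first (r = 0.961), followed by the sodium/proton exchanger gene SLC9A8 (r = 0.957) and DNAJC10 (r = 0.95), a disulphide reductase of the endoplasmic reticulum. GCLM itself rose from 112 to 378 CPM (3.36-fold, adjusted p = 5.2e-11). Among the members, the same within-group correlations ran from -0.812 (TXNRD1 and PRDX2) to 0.904 (PRDX4 and PRDX6), and 20 of the 36 pairs were positive. All these points share libraries and depth, so the correlations are descriptions.

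Around the members, 6 lists of related genes held 55 genes, of which 52 were tested, 20 were called higher and 13 lower. Of the 20 called higher, 12 were in 1 list, the NRF2-induced genes outside the members. Over all genes tested, 20.1% were called higher and 21.5% lower. Among thioredoxin partners and relatives, 1 of 7 was higher and 3 were lower, with a median log2 fold change of -0.19. The proteasome-associated thioredoxin-like gene TXNL1 rose (log2 0.34, adjusted p = 0.00382). TXNDC17 (log2 -0.41, adjusted p = 0.00046) and the endoplasmic reticulum oxidoreductase gene TXNDC12 (log2 -0.40, adjusted p = 4.65e-06) fell, as did the reductase gene TXNRD3 (log2 -0.19, adjusted p = 0.0276). The mitochondrial thioredoxin gene TXN2 had 123 CPM in DMSO and 115 CPM following PBKi and was not called (adjusted p = 0.182). Of 4 glutaredoxins, which reduce disulphides with glutathione, GLRX2 was called (log2 -0.21, adjusted p = 0.0395) and 3 were not.

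Among 12 thioredoxin clients and sestrins 4 were higher, 3 lower and 5 not called. For this list and the next, the shares of all genes tested were 20.1% higher and 21.5% lower. The largest rises were SESN2, a stress-induced sestrin (log2 0.67, adjusted p = 5.16e-06), MAP3K5, the kinase ASK1 that reduced thioredoxin holds inactive (log2 0.61, adjusted p = 1.52e-06), and the methionine sulfoxide reductase gene MSRA (log2 0.41, adjusted p = 0.00349). SESN3 (log2 -0.47, adjusted p = 0.00371), SESN1 (log2 -0.30, adjusted p = 0.00191) and the ribonucleotide reductase subunit RRM1 (log2 -0.18, adjusted p = 0.00732) fell. Sestrins thus moved in both directions. Of 10 genes of thiol oxidation in the endoplasmic reticulum, the compartment of PRDX4, 2 rose and 5 fell, with a median of -0.19. QSOX1, a secreted and Golgi sulfhydryl oxidase, rose (log2 0.53, adjusted p = 8.71e-06), as did the disulphide isomerase gene P4HB (log2 0.25, adjusted p = 0.00196). PDIA4 (log2 -0.34, adjusted p = 0.000151), QSOX2 (log2 -0.22, adjusted p = 0.00242) and TMX1 (log2 -0.20, adjusted p = 0.0051) were the largest falls.

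Of 9 other peroxide and superoxide enzymes 7 were tested. Catalase (CAT), which breaks down hydrogen peroxide without thiols, fell from 180 to 156 CPM (log2 -0.21, adjusted p = 0.00254). GPX2 was called higher (log2 1.57, adjusted p = 0.00294) but at 1 to 27 counts per library, and 5 genes were not called. By contrast, all 12 listed NRF2-induced genes outside the members were called higher, each without overlap between the groups. Their median log2 fold change was 1.39. Over all genes tested, 20.1% were called higher and 10.5% were higher without overlap. The list was chosen with earlier results of these data known, so its count and the comparison of members with its range are descriptions. The part of NRF2 in these changes was not tested. The largest rises in this list were OSGIN1 (6.41 to 45.9 CPM, log2 2.87) and the ferritin heavy chain gene FTH1 (132 to 621 CPM, log2 2.25). FTH1 has processed copies elsewhere in the genome. The log2 fold change of TXNRD1 (1.71) lies inside the range of this list (0.589 to 2.87). That of PRDX1 (0.585, SE 0.0516) was level with the lowest gene of the list, TALDO1 (0.589, SE 0.0548). The values of the other members lie below the range.

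**Figure D5:**
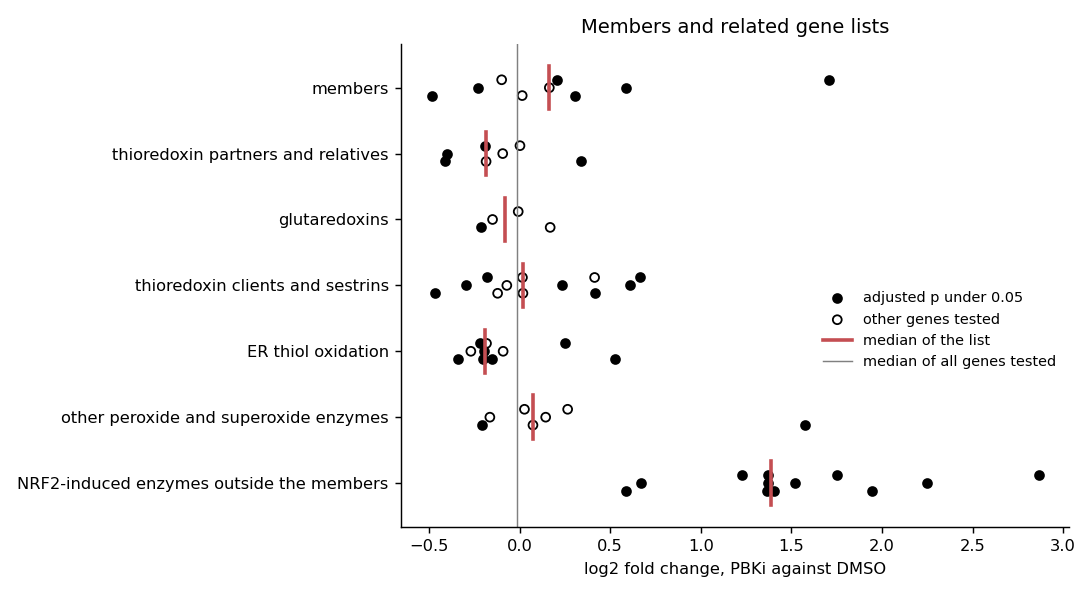
Log2 fold change of each tested gene, PBKi against DMSO, for the 9 members and 6 related lists, with filled points for an adjusted p under 0.05 and a red bar at each list's median. All 12 points of the NRF2-induced list are filled and to the right of 0, with a median of 1.39, whereas the medians of the other 5 related lists lie between -0.19 and 0.07.

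The cells were checked against marker genes. All 8 prostate epithelial markers were measured in both groups, and their summed level was 4373 to 5140 CPM in DMSO and 2029 to 2917 CPM following PBKi. KLK3 alone held most of this sum in DMSO (2959 CPM, against 1131 CPM following PBKi). Of the 8 markers, 5 were called lower, among them KLK2 (log2 -1.48), KLK3 (log2 -1.39) and TMPRSS2 (log2 -1.24), all androgen-induced genes. FOLH1 was called higher (log2 0.33). EPCAM (128 CPM in DMSO and 120 following PBKi, adjusted p = 0.117) and KRT8 (154 and 166 CPM, adjusted p = 0.191) were not called. Markers of blood, immune, endothelial and stromal cells summed to 22.4 to 27.6 CPM in DMSO and 20.9 to 25.6 CPM following PBKi over 8 genes with a count row, mostly COL1A1 (18.7 CPM in DMSO). MS4A1 and HBB were at 0 in all libraries, CD3E had at most 1 count, and VWF was called lower (log2 -0.50). The part of the change in prostate markers in the results on the members was not tested, and in bulk RNA fewer cells of a kind and less RNA per cell cannot be told apart.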

How the data were processed

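Gene-level read counts were deposited by the authors for 47 lanes of 12 libraries, without normalisation. Per the labels and methods, single-end reads were aligned to GRCh37 with TopHat2 2.0.4 and counted per gene with HTSeq 0.5.3p9. HTSeq drops reads that fall on more than 1 gene, and the strand setting is not given in the sources used here. Lanes of a library are technical repeats and were summed (3 lanes for DMSO replicate 5, 4 for the others). Summary rows stayed out of library sizes: reads on no gene were 5.74% to 9.3% of a library's uniquely aligned reads, highest in PBKi replicates 3 and 6. Of 54127 identifiers, 87.01% matched a symbol.

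A gene entered the test when 6 or more libraries had 10 or more counts. The test used edgeR 4.0.16 (R 4.3.3, TMM factors, quasi-likelihood test of PBKi against DMSO, Benjamini-Hochberg over 14505 genes). The test was checked on simulated data that held no split between replicate sets, so the check does not cover that split. DESeq2 1.42.0 and limma-voom (limma 3.58.1) were alternatives, next to other scalings, filters, replicate sets and left-out libraries. Standard errors were computed as the absolute log2 change over the square root of F. CPM are TMM-normalised, with a prior count of 2 in log2 values. Exon lengths, overlaps and positions come from GENCODE 44 on GRCh37. Reads had been counted on the annotation of the study, whose gene models may differ from these. Processed copies of the members held at most 0.299% of a member's counts (PRDX3), but this leaves out alignments that were not unique (26.7% to 29.3% of all recorded), whose share per gene is unknown. Counting error only is covered by the depth given.

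Members, gene lists and tests were chosen with earlier results of these data known. Named were all members, up to 3 called genes per direction of each list with the largest change, and 3 genes most like the member with the largest change under each measure. Some genes that these rules name are not reported here. MMACHC was added because its exons overlap those of PRDX1, and TXN2, EPCAM, KRT8, COL1A1, MS4A1, HBB and CD3E after their values were seen.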

Additional observations from a re-analysis of the deposited data

Results flagged for a closer look

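The level of TXNRD2 in DMSO replicate 5 (86.7 CPM) stood apart from the other 5 DMSO libraries, which had 72.8 to 78.0 CPM. Its gap to the next library was 0.629 of the range of the group, past the 95% critical value of Dixon's test for 6 samples. It was the only such case among 18 groups examined (9 genes in 2 groups), and chance gives about 1 in 20. DMSO replicate 5 was sequenced in 3 lanes rather than 4, whose part was not tested. Without this library the log2 fold change of TXNRD2 was 0.05 (adjusted p = 0.443) and again not called.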

How the results depend on the processing

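TXNRD1, PRDX1, PRDX3 and PRDX5 kept their direction and their call at an adjusted p under 0.05 in every refit, from 1.59 to 1.83, 0.55 to 0.63, -0.63 to -0.30 and 0.29 to 0.35 on the log2 scale, and PRDX2 was never called. PRDX6 was not called in replicates 4 to 6 only (0.19). PRDX4 was not called with library totals only (-0.18), upper-quartile factors (-0.21), 10 counts in all 12 libraries (-0.22), replicates 4 to 6 only (-0.175), lanes 6 to 8 only (-0.21) or without PBKi replicates 3 and 6 (-0.19), and leaving out 1 library at a time gave -0.28 to -0.17. The number of members called lower was therefore 1 in these 6 settings and at an adjusted p under 0.01, and 1 to 2 with 1 library left out. With a log2 change of at least 0.5 also required, 2 members were called higher and 0 lower. TXN was called with library totals only (0.21) and with a term for the sets of replicates 1 to 3 and 4 to 6 (0.17), and its value with 1 library left out was 0.14 to 0.23. TXNRD2, never called, changed sign in replicates 1 to 3 only (-0.038), and with 1 library left out it ran from -0.022 (without PBKi replicate 4) to 0.0507 (without DMSO replicate 5). The cause of these changes was not tested, except that the fits in 1 replicate set use fewer libraries.

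With a replicate block, TXN was called (0.17, adjusted p = 0.00359) and no other member's call changed, so that 5 members were higher and 2 lower. Over all genes the block gave 3485 higher and 3803 lower. Same-numbered libraries correlated in their deviations from the group means at 0.089 to 0.299 (mean 0.198, against -0.04 for other numbers). Replicate 5 was lowest and under 0.1, and 4 of 6 libraries of each group correlated best with their own number in the other group. The labels name no shared batch, so the numbers were not taken to pair the libraries. By number, TXN, TXNRD1, PRDX1, PRDX5 and PRDX6 were higher in 6 of 6 pairs, and PRDX3 and PRDX4 were lower in 6 of 6. TXNRD2 and PRDX2 went both ways. The share of all genes with such agreement is not given here. Every measured member had 801 counts or more in each library, whereas GPX2 in the related lists had 1 to 27.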
